A study of Mus musculus with 20 samples.

Results

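The 10 genes described here belong to the cardiac and outflow tract transcription factor network: Gata4, Gata5, Gata6, Hand1, Hand2, the long noncoding RNA Hand2os1 beside Hand2, Tbx20, Nkx2-5, Isl1 and Mef2c. They were taken by symbol, through the Ensembl gene IDs of the count table, and all 10 were found among its 54532 genes. RNA was taken from the ascending or from the descending aorta of C57BL/6J mice that drank water or received BAPN (β-aminopropionitrile, which blocks the lysyl oxidases that cross-link elastin and collagen) for 1 week. The 4 groups are ascending aorta under water, ascending aorta under BAPN, descending aorta under water and descending aorta under BAPN, with 5 libraries in each. No transgene or deletion is named for any group, and all groups share the strain. The region was read from the letters in the sample titles together with the design text. Age, sex and dose are not given in the sources used here. Nor do the labels say whether each library came from its own mouse, so p-values measure the spread between these libraries, which may in part be technical.

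GATA factors are zinc finger proteins that bind GATA sites and, with the homeodomain factor NKX2-5, the T-box factors, the MADS-box factor MEF2C and the HAND proteins of the basic helix-loop-helix family, switch on the genes of the embryonic heart. ISL1, a LIM homeodomain factor, marks progenitors of the second heart field, the mesoderm that builds the outflow tract. Smooth muscle of the ascending aorta is known to descend from that field and from the neural crest, whereas smooth muscle of the descending aorta comes from somites.

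Library totals ran from 15744725 to 23292294 counted reads. A gene's level is given in CPM, its counts relative to the scaled library total, or in CPM per kilobase of exon (RPKM) where different genes are set side by side. Differences are log2 ratios from edgeR's quasi-likelihood test, with a standard error (SE) computed back from the ratio and the test statistic. A gene is called where its Benjamini-Hochberg adjusted p over all 15543 tested genes is under 0.05. Smooth muscle markers summed to between 20600 and 26970 CPM in all 20 libraries. One library, descending water 1, held 75.3 CPM of thymus and lung markers against at most 9.74 CPM in the others, and without it 7 of the 10 genes were called between regions under water, as with it. Pseudogene levels split the libraries into 2 unlabelled sets, with all ascending BAPN libraries in the set with higher levels and all descending BAPN libraries in the other, so that region under BAPN and set can be told apart only through a model with a set term.

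The sequence at the start of Hand2 is shown because Hand2 and Hand2os1 were the pair of members with the most similar levels over the libraries, mainly through a shared regional step. Their RefSeq transcripts also start side by side in opposite directions. The RefSeq start of Hand2os1 (minus strand, base 57320859 of chromosome 8, GRCm38.p6) lies 124 bases before that of Hand2 (plus strand, base 57320983), so the 250 bases before Hand2 also hold the first bases of Hand2os1 on the other strand. The short stretches before Tbx20, Nkx2-5, Isl1 and Mef2c are set beside it. These genes stand for the 3 regional readings described below: lower, not detected at this depth in the descending aorta, and nearly level. Of the 10 genes, 7 had a promoter entry in RefSeq, and those of Gata5 and Hand2os1 are not printed. Each sequence runs 5′ to 3′ on the gene's own strand up to the base before its start, and capitals mark GATA matches (the letters GATA with A or T before them and A or G after them) and E-boxes (CANNTG), the motif bound by basic helix-loop-helix factors, on either strand.
Hand2, chr8:57320733-57320982, plus strand: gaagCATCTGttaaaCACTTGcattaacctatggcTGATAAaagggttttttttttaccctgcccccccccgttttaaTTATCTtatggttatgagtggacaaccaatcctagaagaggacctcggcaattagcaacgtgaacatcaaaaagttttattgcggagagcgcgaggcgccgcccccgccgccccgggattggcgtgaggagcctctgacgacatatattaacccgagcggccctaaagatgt
Tbx20, chr9:24774304-24774423, minus strand: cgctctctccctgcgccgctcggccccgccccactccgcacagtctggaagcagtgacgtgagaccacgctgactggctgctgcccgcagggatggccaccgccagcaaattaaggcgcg
Nkx2-5, chr17:26841566-26841685, minus strand: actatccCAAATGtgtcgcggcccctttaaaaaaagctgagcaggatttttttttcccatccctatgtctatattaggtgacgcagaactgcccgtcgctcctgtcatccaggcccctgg
Isl1, chr13:116309689-116309808, minus strand: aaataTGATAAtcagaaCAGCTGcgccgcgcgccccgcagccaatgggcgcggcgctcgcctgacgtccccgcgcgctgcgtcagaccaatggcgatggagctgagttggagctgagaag
Mef2c, chr13:83503914-83504033, plus strand: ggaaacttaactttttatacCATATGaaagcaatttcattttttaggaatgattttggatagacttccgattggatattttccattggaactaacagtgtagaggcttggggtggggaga

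In the 250 bases before its start, Hand2 held 2 GATA matches, beginning 215 and 172 bases before the start, and 2 E-boxes, beginning 246 and 235 bases before it. The E-box at 235 overlaps a match to the NK2 core (AAGTG), the motif of NKX2-5 and its relatives. Of 32851 mouse promoters in RefSeq, 26.5% held a GATA match in the same window, 66.2% an E-box and 40.7% an NK2 core. The window before Tbx20 held none of these, nor a T-box half-site (AGGTGT, in 11.8% of promoters), a MEF2 motif (in 0.508%) or a TATA box (TATAAA, in 12.4%). Isl1 had 1 GATA match and 1 E-box, and Mef2c, at the first of its 3 RefSeq starts, a TATA box 107 bases before the start, E-boxes at 234 and 100 and an NK2 core at 233. The other two Mef2c starts, not printed, held other matches, among them a T-box half-site at 216 and a TATA box at 22 before the second. These matches describe letters in the sequence and are not measured binding sites.

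Under water, 7 of the 10 genes were lower in the descending than in the ascending aorta: Gata4, Gata5, Hand1, Hand2, Hand2os1, Tbx20 and Nkx2-5. Gata6, Isl1 and Mef2c were not called. Of all genes tested, 27.3% were called in this comparison and 15.2% were called and lower. For the 7 genes no ascending library overlapped a descending one, which held for 20.1% of all genes tested. Gata4, Gata5, Hand1, Hand2os1 and Nkx2-5 entered the test through their level in the ascending libraries alone, and so had to be lower in the descending aorta. The p-values and ranks given for these genes between regions therefore describe the gap and do not test its direction. Fewer cells of a type and less RNA per cell cannot be told apart in these bulk libraries.

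**Figure D1:**
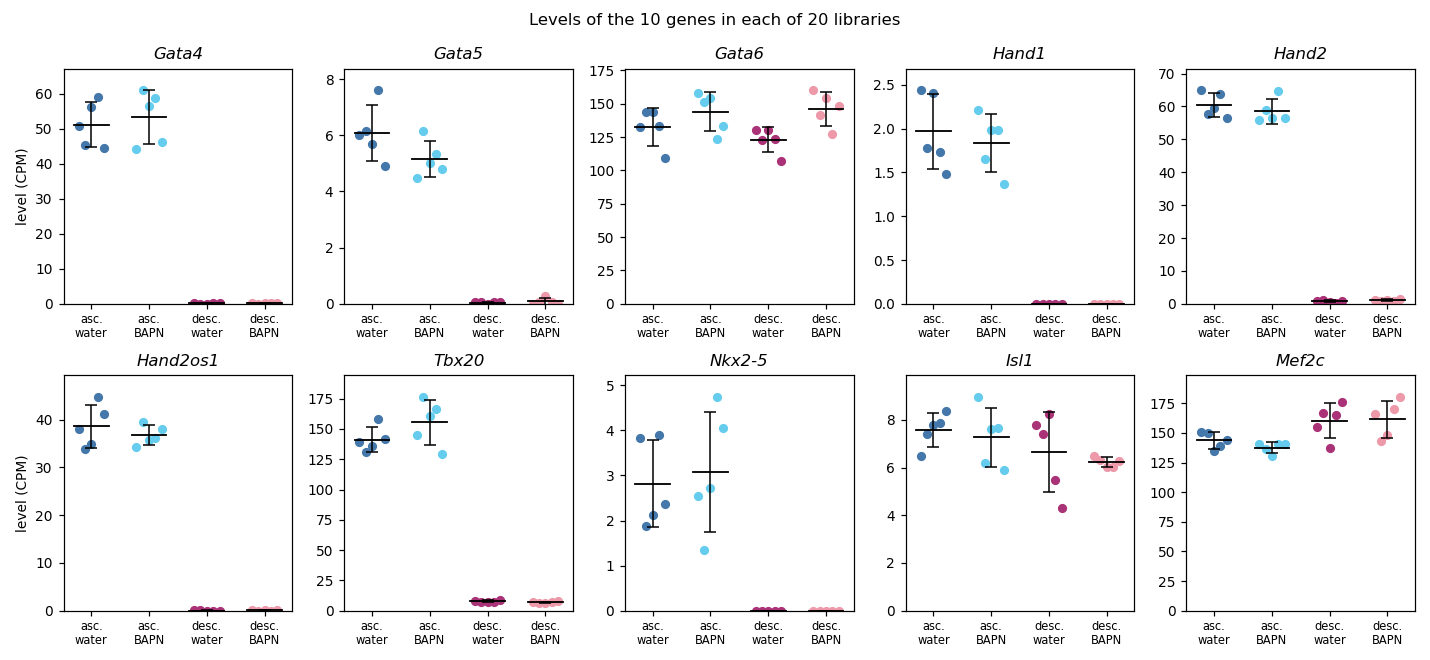
Level of each of the 10 genes (CPM, y axis from 0) in the 5 libraries of each group (x axis), with a horizontal line at the mean and a bar of 1 SD. Gata4, Gata5, Hand1, Hand2, Hand2os1, Tbx20 and Nkx2-5 are high in the 10 ascending libraries and low or at 0 in the 10 descending ones, whereas Gata6, Isl1 and Mef2c lie at similar heights in all 4 groups.

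Gata4, a factor needed for formation of the heart tube and the endocardial cushions, is encoded on the minus strand of chromosome 14 (63198922 to 63271692, GRCm38). In ascending aorta under water it stood at 50.7, 45.4, 56.1, 58.9 and 44.6 CPM in replicates 1 to 5. In descending aorta under water the 5 libraries gave 0.256, 0.0616, 0, 0.215 and 0.123 CPM. Every descending library thus lay far below the lowest ascending one. The log2 difference was -8.50 (SE 0.22, adjusted p = 3.1e-20), which ranked 6 by p-value among all genes tested, and rested on 12 counts in the descending group against 5214 in the ascending group. Since Gata4 passed the filter only through the ascending groups, this p and rank do not test the direction. Under BAPN the means were 53.3 ± 7.67 CPM (SD, n = 5) and 0.157 ± 0.0952 CPM, and the difference was -8.36 (SE 0.21, adjusted p = 3.02e-20).

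Gata5, which acts in endocardium and in formation of the aortic valve, lies on the minus strand of chromosome 2 (180325133 to 180334699). The ascending water libraries held 6.03, 6.17, 5.68, 7.62 and 4.89 CPM, and the descending water libraries 0.0512, 0.0616, 0, 0.0537 and 0.0614 CPM. The descending values correspond to 4 counts in all 5 libraries together, so only their distance from the ascending group is measured well. The log2 difference was -6.88 (SE 0.37, adjusted p = 9.12e-14) under water and -5.93 (SE 0.35, adjusted p = 4.38e-13) under BAPN. An antisense gene, Gata5os, covers 7.87% of the exon bases of Gata5, and the strand setting of the counting is not given in the sources used here. Gata5os itself held 19 counts in ascending water and 0 in both descending groups.

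Gata6, the family member known for its part in vascular smooth muscle and in outflow tract septation, lies on the plus strand of chromosome 18 (11052064 to 11085635). Its levels overlapped between the regions, unlike those of Gata4 and Gata5. Gata2, a relative outside the 10 genes, was level too (25.2 ± 4.52 and 26.2 ± 3.68 CPM under water, 0.05, adjusted p = 0.779). Ascending water libraries held 132.7, 143.4, 143.6, 133.4 and 109.5 CPM, and descending water libraries 130.5, 122.9, 130.4, 123.7 and 107.4 CPM. The difference was -0.11 (SE 0.08, adjusted p = 0.332) under water, with a 95% interval from -0.27 to 0.05, and 0.02 (SE 0.08, adjusted p = 0.878) under BAPN, with an interval from -0.14 to 0.18. These intervals leave out changes of the size seen for Gata4 or Gata5. A transcript antisense to Gata6, 1010001N08Rik, overlaps 1.43% of its exon bases and was lower in the descending aorta (-0.44, SE 0.13, adjusted p = 0.0117 under water).

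Per length of exon, the 3 GATA genes summed to 35.3 ± 3.4 RPKM in ascending water and 18.9 ± 1.44 RPKM in descending water (SD, n = 5). Gata6 supplied 57.7% of that sum in the ascending aorta, Gata4 37.1% and Gata5 5.24%. In the descending aorta the share of Gata6 was 99.75%. Under BAPN the corresponding shares of Gata6 were 59.3% and 99.7%, on sums of 37.4 and 22.5 RPKM. The makeup of the transcripts of these 3 genes therefore went from a mixture of Gata6 and Gata4 in the ascending aorta to nearly Gata6 alone in the descending aorta, under both treatments.

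**Figure D2:**
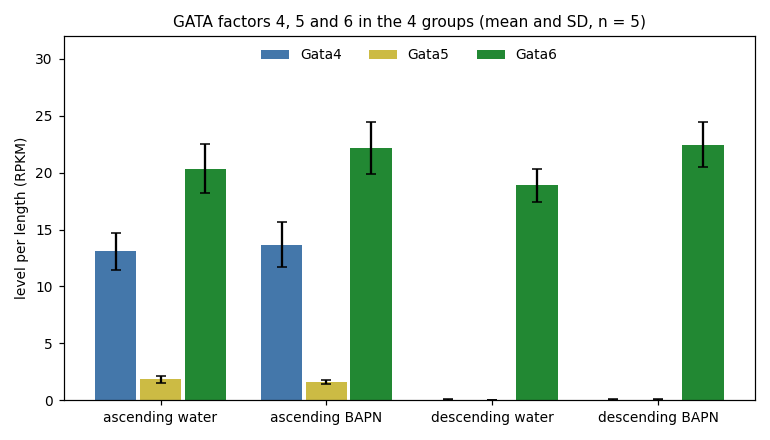
Level per length (RPKM, y axis) of Gata4, Gata5 and Gata6 in the 4 groups (x axis), as the mean with 1 SD over 5 libraries. Gata6 stands between 18.9 and 22.5 RPKM in every group, while the bars of Gata4 (13.1 and 13.7 RPKM in the ascending groups) and Gata5 are absent at this scale in both descending groups.

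Hand2, a basic helix-loop-helix factor required in the right ventricle, the outflow tract and neural crest cells, lies on the plus strand of chromosome 8 (57320983 to 57324633), downstream of the sequence printed above. The ascending water libraries held 65.0, 57.8, 59.5, 63.8 and 56.5 CPM. The descending water libraries held 0.87, 1.17, 0.484, 0.376 and 0.736 CPM. All descending libraries were low, yet none was at 0. Hand1 had 0 counts there, but from a far lower ascending level (1.97 against 60.5 CPM under water). Its bound of at least 59.3-fold lies below the Hand2 count ratio of 84.4 (95% interval 66 to 110, covering counting error only). The 2 falls may thus be of the same size. The log2 difference was -6.39 (SE 0.14, adjusted p = 1.08e-21) under water and -5.74 (SE 0.13, adjusted p = 2.9e-21) under BAPN, and it ranked 2 by p-value among all genes tested in each case.

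Hand2os1 lies on the minus strand (57281117 to 57324233). Its RefSeq start is upstream of Hand2, but some annotated transcripts start within Hand2 and run antisense to it. It is known from mouse embryos as a regulator of the Hand2 locus. Its ascending water libraries held 38.1, 33.9, 35.0, 44.8 and 41.1 CPM. In descending water it was detected in 2 of the 5 libraries, at 0.102 and 0.0616 CPM, and had 0 counts in replicates 3, 4 and 5. The 3902 ascending against 3 descending counts gave a ratio of 1140 (95% interval 391 to 5550, covering counting error only), and the fitted log2 difference was -9.90 (SE 0.22, adjusted p = 3.39e-21). Under BAPN, 3234 counts stood against 5, with a difference of -9.21 (SE 0.21, adjusted p = 3.89e-21).

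Per length of exon, Hand2os1 ran at 0.117 ± 0.013 of the level of Hand2 in ascending water and 0.115 ± 0.00858 in ascending BAPN (SD of the ratio, n = 5). The exons of the 2 genes share 461 bases, which are 19.6% of those of Hand2, on opposite strands. Reads from these bases may therefore have been left out or given to either gene, and the ratio is uncertain to that extent. Over all 20 libraries the log2 levels of Hand2 and Hand2os1 had a Pearson r of 0.997, the highest of any gene for either. Since both genes step down between the same regions, this r describes mainly that step. In deviations from the 4 group means, neither gene was among the 5 closest to the other.

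Hand1, the relative of Hand2 that acts in the left ventricle and the extraembryonic tissues, lies on the minus strand of chromosome 11 (57828705 to 57832818) and was the lowest of the 10 genes per length in the ascending aorta. The ascending water libraries held 2.44, 1.78, 2.40, 1.73 and 1.48 CPM, and the ascending BAPN libraries 2.21, 1.65, 1.99, 1.99 and 1.37 CPM. All 10 descending libraries had 0 counts of Hand1. Set against a floor of 3 counts over the group, its level was at least 59.3-fold lower in descending water (adjusted p = 4.34e-09) and at least 55.8-fold lower in descending BAPN (adjusted p = 6.31e-09). Its level per length was 0.0382 ± 0.00739 of that of Hand2 in ascending water (SD, n = 5).

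Tbx20, a T-box repressor and activator that works with GATA4 and NKX2-5 in the heart and the valves, lies on the minus strand of chromosome 9 (24718138 to 24774303). Its ascending water libraries held 139.4, 130.6, 136.2, 158.2 and 142.0 CPM. Its descending water libraries held 8.04, 7.33, 7.31, 7.57 and 8.96 CPM. Of the genes that were lower, Tbx20 had the most counts in descending water, 699 against 64 for Hand2, the next. The size of its difference is therefore measured rather than bounded by depth, as is that of Hand2, on fewer counts. The log2 difference was -4.17 (SE 0.09, adjusted p = 8.6e-22) under water and -4.49 (SE 0.09, adjusted p = 2.22e-22) under BAPN. In both comparisons it ranked 1 by p-value among all genes tested, while by the most negative fitted difference it ranked 185 under water and 180 under BAPN.

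Nkx2-5, the homeodomain factor of early cardiac muscle cells, lies on the minus strand of chromosome 17 (26838664 to 26845009). The ascending water libraries held 3.84, 1.89, 2.11, 3.89 and 2.37 CPM, and the ascending BAPN libraries 2.54, 1.34, 2.72, 4.74 and 4.05 CPM. Replicates thus varied more for Nkx2-5 than for any other of the 10 genes in the ascending aorta, with a coefficient of variation of 34.3% under water and 43.4% under BAPN. None of the 10 descending libraries held a count. The level was at least 83.3-fold lower in descending water (adjusted p = 1.13e-07) and at least 92.6-fold lower in descending BAPN (adjusted p = 8.17e-08).

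Isl1, the marker of second heart field progenitors, was found at a low and similar level in both regions. It lies on the minus strand of chromosome 13 (116298281 to 116309689). The ascending water libraries held 6.48, 7.39, 7.79, 7.88 and 8.35 CPM, and the descending water libraries 7.78, 7.39, 8.22, 5.48 and 4.29 CPM. Replicates 4 and 5 of descending water lay below every ascending water library and the other 3 lay among them. The difference was -0.19 (SE 0.14, adjusted p = 0.355) under water, with a 95% interval from -0.48 to 0.11, and -0.23 (SE 0.14, adjusted p = 0.26) under BAPN, with an interval from -0.53 to 0.08.

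Mef2c, a MADS-box factor of heart, skeletal and smooth muscle, was abundant in both regions and differed in the other direction. It lies on the plus strand of chromosome 13 (83504034 to 83667080). Ascending BAPN libraries held 140.7, 136.1, 130.3, 140.3 and 141.1 CPM, and descending BAPN libraries 166.2, 142.9, 147.9, 170.3 and 180.5 CPM. These 2 groups did not overlap, and Mef2c was called higher in the descending aorta under BAPN (0.23, SE 0.06, adjusted p = 0.00534), an increase of 1.17-fold. Under water the groups overlapped, at 143.9 ± 7.08 and 160.3 ± 14.9 CPM (SD, n = 5), and the difference of 0.16 (SE 0.06) had an adjusted p of 0.0636. The water call rested on the setting: without descending water replicate 3 the difference was 0.21 with an adjusted p of 0.00919, and with the replicate number as a block the adjusted p was 0.0245. It was 0.23 (adjusted p = 0.0156) within the library set with higher pseudogene levels and 0.06 (adjusted p = 0.772) within the other.

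Under BAPN, 8 of the 10 genes were called between the regions, the 7 lower ones and Mef2c, against 29.8% of all genes tested, with 15.6% called and lower. No libraries overlapped for these 8, which held for 21.4% of all genes tested. Differences of at least 16-fold downward were called for 1.27% of genes tested under water and 1.37% under BAPN, and each of the 7 lower genes exceeded that size under both treatments. Since 5 of the 7 passed the filter only through the ascending groups, this count is a description. Under water Tbx20 differed by -4.21 within the library set with higher pseudogene levels and by -4.18 within the other, and Gata4 by -8.34 and -8.80. Under BAPN neither set holds both regions, and with a set term in the model the same 8 genes were called, Tbx20 at -4.35 and Mef2c at 0.28 (adjusted p = 0.0306).

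**Figure D3:**
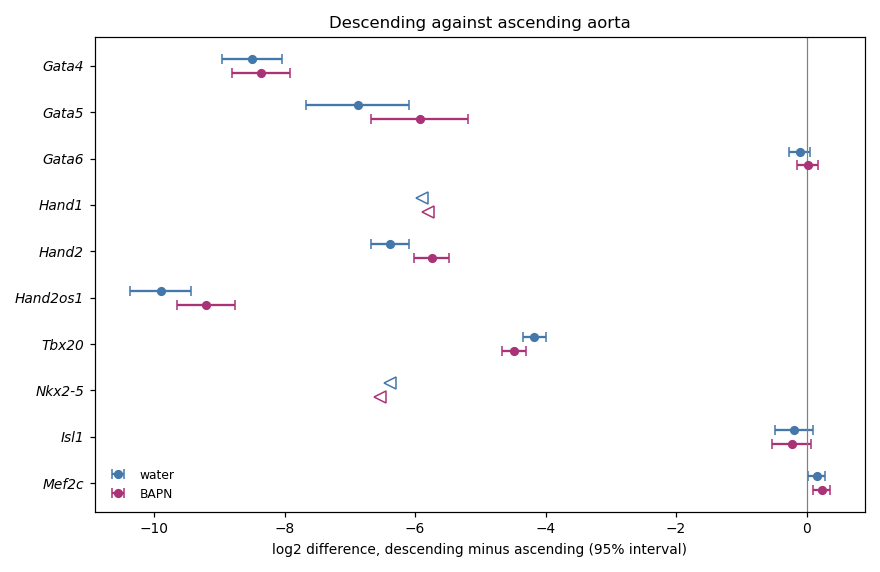
Difference between descending and ascending aorta for each gene (x axis, log2, with 95% intervals) under water (blue) and under BAPN (purple). Open triangles mark Hand1 and Nkx2-5, which had 0 counts in every descending library, at the smallest size their difference can have (at least 59.3-fold and 83.3-fold under water), while Gata6, Isl1 and Mef2c lie within 0.25 of 0.

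Ordered by level per length, the 10 genes in ascending water ran from Hand2 (25.7 RPKM) through Gata6 (20.4), Gata4 (13.1), Tbx20 (11.8), Mef2c (9.16), Hand2os1 (3.003), Isl1 (1.91), Gata5 (1.85) and Nkx2-5 (1.64 RPKM) to Hand1 (0.985 RPKM). Gata4 and Tbx20 overlapped in their libraries, as did Isl1 with Gata5, Gata5 with Nkx2-5 and Nkx2-5 with Hand1. In descending water the order was Gata6 (18.9 RPKM), Mef2c (10.2), Isl1 (1.67), Tbx20 (0.654) and Hand2 (0.309 RPKM), none of which overlapped its neighbour. Gata4, at 0.0336 RPKM, and the genes after it overlapped one another near or at 0. Hand2 thus stood at the top of the order in the ascending aorta and in the fifth place in the descending aorta, and Isl1 in the seventh and the third. Lengths are those of all annotated exons together (1719 bases for Nkx2-5, 15715 for Mef2c), so the level of a gene that uses only some of them is understated.

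BAPN for 1 week was not followed by a called change in any of the 10 genes in the ascending aorta, where 6.34% of all genes tested were called, 3.44% higher and 2.91% lower. The groups overlapped for every one of the 10, and did not for 7.51% of all genes tested. By edgeR 1 of the 10 had an unadjusted p under 0.05, and DESeq2 and limma-voom also called 0. That gene was Tbx20, at 139.4, 130.6, 136.2, 158.2 and 142.0 CPM under water and 145.1, 176.5, 160.6, 166.2 and 129.5 CPM under BAPN. The BAPN group held both the highest values and the lowest one. The difference was 0.14 (SE 0.07, 95% interval -0.001 to 0.281, adjusted p = 0.237), and within the library set with higher pseudogene levels it was 0.05 (adjusted p = 0.852).

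For the other 9 genes in the ascending aorta the adjusted p ran from 0.401 to 0.876. The intervals show how large a change these libraries could have missed. Gata4 rested at 51.2 ± 6.35 CPM under water and 53.3 ± 7.67 CPM under BAPN (SD, n = 5), a difference of 0.06 with an interval from -0.15 to 0.27. Hand2 stood at 60.5 ± 3.75 and 58.5 ± 3.74 CPM, with a difference of -0.05 and an interval from -0.22 to 0.12. The widest intervals were those of Nkx2-5, from -0.52 to 0.78, and Hand1, from -0.60 to 0.41, the genes with the fewest counts there.

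In the descending aorta 1 of the 10 genes, Gata6, was called under BAPN, where 10.7% of all genes tested were called, 6.18% higher and 4.54% lower. The water and BAPN libraries overlapped for each of the 10, and did not for 7.38% of all genes tested. Under BAPN Gata6 stood at 160.3, 141.4, 154.1, 127.0 and 148.2 CPM, against 130.5, 122.9, 130.4, 123.7 and 107.4 CPM under water. Replicate 4 of the BAPN group lay among the water libraries and the other 4 above them. The difference was 0.25 (SE 0.08, adjusted p = 0.0356), an increase of 1.19-fold. The call was lost with a term for the library set (0.17, adjusted p = 0.283), within the set with lower pseudogene levels (0.20, adjusted p = 0.203), with upper-quartile scaling (0.22, adjusted p = 0.0679), and without any 1 of 6 libraries: descending BAPN 1, 3 or 5 or descending water 2, 4 or 5 (adjusted p from 0.0561 to 0.103). The part of the library set in this difference was not resolved, since all descending BAPN libraries belong to 1 set.

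Hand2 in the descending aorta stood at 0.87, 1.17, 0.484, 0.376 and 0.736 CPM under water and 1.18, 0.775, 1.11, 0.746 and 1.52 CPM under BAPN. The groups overlapped, and the 64 and 98 counts behind them are few. The difference was 0.59 (SE 0.24, adjusted p = 0.129). Without descending water replicate 2, the highest water library, it was 0.81 with an adjusted p of 0.0412, and within the set with lower pseudogene levels it was 1.32 with an adjusted p of 0.0429. Hand2os1, at 3 and 5 counts in the 2 groups, gave 0.63 with an interval from -1.24 to 2.49.

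Tbx20 stood at 7.84 ± 0.69 CPM in descending water and 6.89 ± 0.64 CPM in descending BAPN (SD, n = 5), a difference of -0.18 (SE 0.10, adjusted p = 0.315). Mef2c differed by 0.01 (interval -0.12 to 0.14) and Isl1 by -0.09 (interval -0.40 to 0.21). The Isl1 libraries were close together under BAPN, at 6.03 to 6.50 CPM, and spread from 4.29 to 8.22 CPM under water. Gata4 and Gata5 had 12 and 4 counts under water and 14 and 7 under BAPN, which leaves wide intervals, from -1.20 to 1.61 for Gata4 and from -1.03 to 2.46 for Gata5. For Hand1 and Nkx2-5 both descending groups held 0 counts, which allows levels of up to 0.0336 CPM under water and 0.0333 CPM under BAPN.

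**Figure D4:**
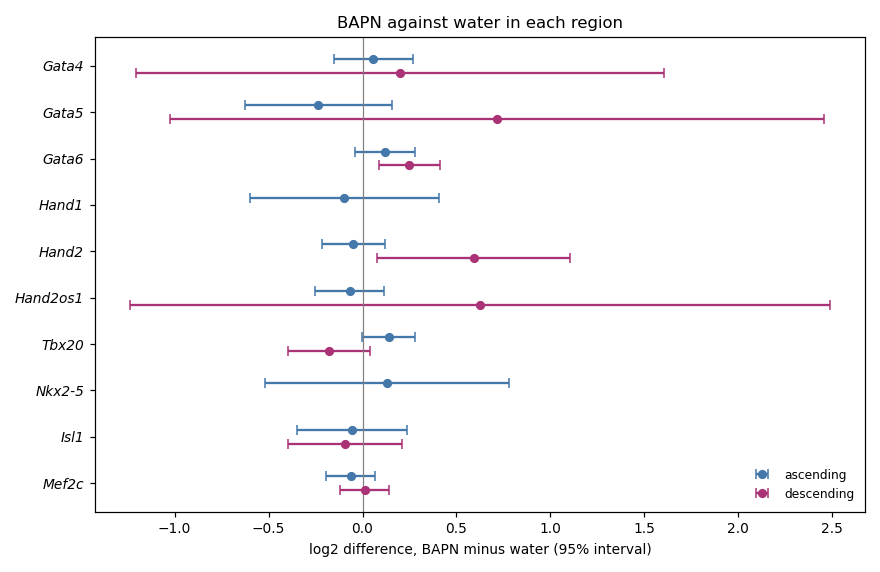
Difference between BAPN and water for each gene (x axis, log2, with 95% intervals) in ascending (blue) and descending aorta (purple); Hand1 and Nkx2-5 have no descending value because both groups held 0 counts. Only the interval of Gata6 in the descending aorta, from 0.09 to 0.41, belongs to a called gene, and the intervals of Gata4, Gata5 and Hand2os1 there are wide because they rest on 3 to 14 counts per group.

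An effect of BAPN that differed between the regions was called for 0 of the 10 genes by edgeR, with 2 of them at an unadjusted p under 0.05, and for 0 by DESeq2 and by limma-voom; 0% of all genes tested were called. The 2 genes were Tbx20 (-0.32, SE 0.12, adjusted p = 0.596) and Hand2 (0.64, SE 0.26, adjusted p = 0.604). For Tbx20 the descending minus ascending effect was negative, for Hand2 positive. For Gata6 the difference of effects was 0.13 (SE 0.11, adjusted p = 0.892), with an interval from -0.10 to 0.36. In the ascending aorta Gata6 differed by 0.12 under BAPN (SE 0.08, adjusted p = 0.401). With a library set term the difference of effects was -0.045 (SE 0.14, adjusted p = 0.985). Gata6 then differed under BAPN by 0.21 in the ascending aorta (adjusted p = 0.207) and by 0.17 in the descending aorta (adjusted p = 0.283). A rise particular to the descending aorta was thus not shown.

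Markers of several other tissues differed between the regions. Of 23 heart muscle markers 22 were tested, and all 22 were lower in the descending aorta under both treatments, among them Tnnt2 (-6.10, SE 0.18, adjusted p = 7.58e-19), the cardiac troponin T gene, and Myh6, which encodes α-myosin heavy chain. Of all genes tested, 15.2% were called and lower under water and 15.6% under BAPN. Several of the 22, such as Myl3 (0.0854 CPM in descending water), entered the test through the ascending libraries alone. Those genes could only be called lower, so the count is a description. The summed level of the 23 markers ran from 654.7 to 1510 CPM in ascending water, 1068 to 1988 CPM in ascending BAPN, 116.3 to 126.8 CPM in descending water and 116.4 to 129.7 CPM in descending BAPN. Ryr2, which differed by only -0.295 between regions under water, held a mean of 60.7 CPM of the sum in descending water. In descending water the ventricular light chain gene Myl2 and Csrp3 were at 0, and in descending BAPN Nppb was. In the ascending aorta 4 of the 22 were higher under BAPN, at most by 0.91 on the log2 scale (Myl3, adjusted p = 0.015). The part of heart muscle RNA in the regional difference of the 10 genes was not tested, and only relations within the ascending aorta were computed.

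Within the ascending aorta, the 10 genes can be set beside the summed heart muscle markers as deviations from each group's mean over 10 libraries. Among 20 relations computed, none passed Benjamini-Hochberg adjustment. Nkx2-5 had a Pearson r of 0.675 (permutation p = 0.0337, adjusted 0.337) and a Spearman rho of 0.697 (p = 0.0317, adjusted 0.403); without the 2 libraries farthest from the median r was 0.588, and within the 7 libraries of the set with higher pseudogene levels 0.553. Gata6 had an r of -0.722 (permutation p = 0.0191, adjusted 0.337) and a rho of -0.673 (p = 0.0403, adjusted 0.403), with r of -0.862 and -0.84 under the same restrictions. The other 8 genes had r from -0.329 (Gata5) to 0.432 (Hand2), with adjusted p of 0.808 or more. The 10 relations with the summed mesothelial and epicardial markers had r from -0.407 (Mef2c) to 0.51 (Isl1), again with adjusted p of 0.808 or more. Within ascending water Gata4, Hand2 and Tbx20 varied by 12.4%, 6.19% and 7.34% (coefficient of variation).

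All 14 mesothelial and epicardial markers were lower in the descending aorta under both treatments, with Upk1b (-5.84, SE 0.26, adjusted p = 2.05e-15) and the keratin gene Krt19 (-5.85, SE 0.27, adjusted p = 4.34e-15) first by p-value under water. Several of the 14, Upk1b and Krt19 among them, entered the test through the ascending libraries alone and could only be called lower. The summed level of the 14 markers was 365.7 to 616.6 CPM in ascending water, 378.6 to 485.4 CPM in ascending BAPN, 25.9 to 47.7 CPM in descending water and 23.0 to 42.4 CPM in descending BAPN, with no marker at 0 in any group. Krt18, which differed by only -0.357 between regions under water, held a mean of 23.3 CPM of the sum in descending water. The part of these markers in the regional difference of the 10 genes was not tested. Cartilage and valve markers were lower for 10 of 11 tested under water, and 6 of 6 tested posterior Hox genes were higher in the descending aorta under both treatments, where they summed to 69.0 to 86.7 CPM under water against 0.148 to 0.444 CPM in the ascending aorta. The posterior Hox genes entered the test through the descending libraries alone and could only be called higher. Of all genes tested, 15.2% were called and lower and 12.1% called and higher under water. Hand2 and Gata3 also mark sympathetic neurons. Of 12 markers of sympathetic and cardiac neurons 5 were tested, and 2 were lower in the descending aorta under both treatments: Stmn2 (8.14 ± 1.62 to 5.60 ± 1.12 CPM under water, adjusted p = 0.0169) and Uchl1 (82.1 ± 5.04 to 68.4 ± 3.82 CPM, adjusted p = 0.000668). The list summed to 90.4 to 107.5 CPM in ascending water, 95.9 to 102.7 CPM in ascending BAPN, 76.9 to 88.7 CPM in descending water and 70.3 to 85.4 CPM in descending BAPN, most of it Uchl1. Its noradrenergic genes Th and Dbh were at 0 in both descending groups, with a mean of 0.136 CPM or less in the ascending groups. Schwann cell markers were lower for 5 of 9 tested under both treatments, and fat cell markers were higher for 5 and lower for 1 of 10 under water and higher for 3 under BAPN. The part of these lists in the levels of the 10 genes was not tested.

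**Figure D5:**
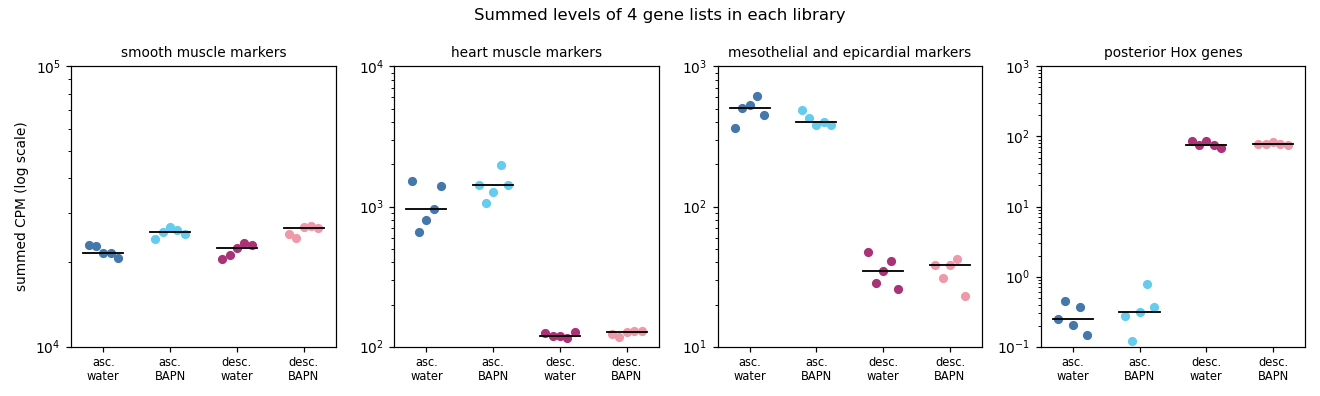
Summed level (CPM, log scale, y axis) of the markers of smooth muscle, heart muscle, mesothelium and epicardium and of the posterior Hox genes, in the 5 libraries of each group (x axis), with a line at the median. Smooth muscle markers lie between 20600 and 26970 CPM in every library, heart muscle and mesothelial markers are high in all ascending libraries and low in all descending ones, and posterior Hox genes are the reverse.

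The relatives of the 10 genes did not all take the same direction. Of 27 paralogues 18 were tested. Under water 8 were lower and 4 higher in the descending aorta, with a median of -0.49 against 0.01 over all genes tested. Under BAPN 8 were lower and 4 higher. Of all genes tested, 15.2% were called and lower and 12.1% called and higher under water. Several of the 8, such as Tbx5 (0.139 CPM in descending water) and Isl2 (0 CPM), entered the test through the ascending libraries alone. Those genes could only be called lower, so the counts and the median are a description. Tcf21, a basic helix-loop-helix factor of epicardium and fibroblasts, was lower, at 0.917 ± 0.342 against 30.7 ± 1.85 CPM (-5.04, SE 0.14, adjusted p = 1.2e-19), as was Tbx2, at 7.03 ± 0.71 against 20.3 ± 1.76 CPM (-1.53, SE 0.09, adjusted p = 2.08e-13). Nkx2-3, a homeodomain factor of spleen and gut mesenchyme related to Nkx2-5, was higher in the descending aorta, at 8.20 ± 1.24 against 0.383 ± 0.196 CPM (4.36, SE 0.24, adjusted p = 1.69e-13). In the ascending aorta it lay near the filter on low counts, so a call in the other direction was hardly possible. Tbx18, a T-box factor of mural cells and epicardium, was higher in the descending aorta too (0.59, SE 0.06, adjusted p = 3.8e-08). Members of the same family thus stood on opposite sides: Nkx2-5 and Nkx2-3, or Tbx20 and Tbx18.

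All 26 cofactors of the 10 genes on the list were tested. Under water 9 were lower and 1 higher in the descending aorta (median -0.06), and under BAPN 7 were lower and 7 higher (median -0.01). Of all genes tested, 15.2% were called and lower and 12.1% called and higher under water, and 15.6% and 14.2% under BAPN. The regional counts of all gene lists under BAPN come from the model without a set term, which cannot tell region from library set. Lmo4, a LIM-only protein, was lower (-0.94, SE 0.04, adjusted p = 3.54e-15). Tcf4, an E protein with which HAND and TWIST factors pair, was lower (-0.88, SE 0.05, adjusted p = 8.45e-13). Zfpm1, a partner of GATA factors also called FOG1 (-0.64, SE 0.11, adjusted p = 3.9e-05), and Ankrd1, which is also a heart muscle marker (-2.72, SE 0.25, adjusted p = 1.7e-09), were lower too.

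Second heart field and outflow tract development genes were divided. Under water 14 of 35 tested (39 listed) were lower and 9 higher in the descending aorta (median -0.09), and under BAPN 14 lower and 11 higher. Of all genes tested, 15.2% were called and lower and 12.1% called and higher under water. Several of the 14, such as Fgf9 (0.272 CPM in descending water) and Irx5 (0.0472 CPM), entered through the ascending libraries alone and could only be called lower. Foxf2 (0.117 CPM in ascending water) entered through the descending libraries alone and could only be called higher. Rgs5, a regulator of G protein signalling, was higher (1.31, SE 0.06, adjusted p = 5.7e-16), while the homeobox gene Msx1 (-1.83, SE 0.10, adjusted p = 3.92e-14) and the ligand genes Wnt5a (-0.95, SE 0.07, adjusted p = 4.08e-11) and Wnt11 (-1.66, SE 0.14, adjusted p = 2.62e-10) were lower. Of 16 tested cardiac neural crest genes (18 listed), 12 were lower and 2 higher under water (median -0.67) and 11 lower and 2 higher under BAPN. Several of the 12, such as Tfap2a and Zic1 (0.132 CPM in descending water), entered through the ascending libraries alone and could only be called lower. The counts and medians of both lists are therefore a description. Sox9, also on the cartilage list (-3.03, SE 0.13, adjusted p = 1.5e-15), and Meis2 (-0.77, SE 0.06, adjusted p = 4.65e-11) were lower, and Tfap2a was at least 52.2-fold lower, with 0 counts in descending water. Prrx1, a homeobox gene of mesenchyme, was higher (0.59, SE 0.04, adjusted p = 1.08e-11).

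Some of these related genes changed with BAPN. Among the cofactors, Myocd, the coactivator of smooth muscle genes, rose in the ascending aorta from 93.8 ± 8.77 to 137 ± 6.19 CPM (0.54, SE 0.08, adjusted p = 0.000103) and in the descending aorta from 97.1 ± 16.3 to 143 ± 8.87 CPM (0.56, SE 0.08, adjusted p = 5.34e-05). Tead1, a partner of MEF2 and YAP proteins, rose by 0.30 (SE 0.05, adjusted p = 0.00027) and 0.38 (SE 0.05, adjusted p = 1.14e-05). In all, 2 of 26 cofactors rose and 1 fell in the ascending aorta, where 6.34% of all genes tested were called. In the descending aorta 8 rose and 1 fell, where 10.7% of all genes were called and 6.18% rose. Lmo2 was the one that fell in both. These counts come from the model without a library set term. With that term the calls over all genes went from 986 to 542 in the ascending aorta and from 1667 to 1126 in the descending aorta. The part of the library set in the list counts was not tested. Smooth muscle markers, of which Myocd is one, were higher for 3 of 10 in each region.

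Of the 18 tested paralogues, 2 fell in the ascending aorta under BAPN, Twist1 (-0.20, SE 0.05, adjusted p = 0.022) and Tbx18 (-0.21, SE 0.06, adjusted p = 0.0476), and 1, Mef2d, rose in the descending aorta (0.16, SE 0.04, adjusted p = 0.00875). Of the 35 second heart field and outflow tract genes, 1 rose (Rgs5, by 0.26, SE 0.05, adjusted p = 0.00352) and 4 fell in the ascending aorta, with Foxc1 and Wnt11 first by p-value, and 1 rose (Foxc2) and 1 fell (Sema3c) in the descending aorta. Of all genes tested, 6.34% were called in the ascending aorta and 10.7% in the descending aorta. The descending counts of both lists lie below that share, and their ascending counts lie above it. Of the 16 neural crest genes, 1 fell in the ascending aorta, and 2 fell and 1 rose in the descending aorta. That descending count lies above the share of all genes. On lists this short the counts are a description, and they too come from the model without a library set term. Prrx1 fell in both regions (-0.22, SE 0.04, adjusted p = 0.00136, and -0.27, SE 0.04, adjusted p = 7.94e-05), and in the descending aorta Prrx2 fell (-0.38, adjusted p = 0.0273) and Ets1 rose (0.22, adjusted p = 0.041).

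The nearest tested protein-coding genes on either side of the 7 lower genes numbered 12, since Hand2 and Hand2os1 share theirs. Under water 3 of the 12 were lower and 1 higher in the descending aorta, against 15.2% and 12.1% of all genes tested. Beside Gata4 both nearest tested protein-coding genes were lower in the descending aorta under water: Neil2, a DNA glycosylase gene 5065 bases away (0.846 ± 0.238 to 0.182 ± 0.124 CPM, -2.20, SE 0.39, adjusted p = 6.77e-05), and Fam167a, 164701 bases away (11.4 ± 3.08 to 1.03 ± 0.147 CPM, -3.46, SE 0.25, adjusted p = 1.81e-11). Neil2, with 16 counts in descending water, entered the test through the ascending libraries and could hardly have been called higher. Beside Hand2, Sap30 was lower by less (-0.79, SE 0.23, adjusted p = 0.00938) and Fbxo8 was not called (0.16, adjusted p = 0.0563). The neighbours of Hand1, Sap30l and Larp1, differed by 0.00 between the regions (adjusted p of 1 and 0.989). Of the neighbours of Tbx20, Dpy19l1 was slightly higher in the descending aorta (0.18, SE 0.05, adjusted p = 0.0134) and Herpud2 was not called. None of the neighbours of Gata5 (Cables2 and Mrgbp) and Nkx2-5 (Bnip1 and Kifc5b) was called under water.

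Besides one another, the genes whose log2 levels were most like those of the members over the 20 libraries were again regional. Tbx20 was closest to Npy, the neuropeptide Y gene (r = 0.997), and Gata5 also to Npy (r = 0.989). Gata4 was closest to Hand2os1 (r = 0.995), and Hand1 (r = 0.994) and Nkx2-5 (r = 0.99) to Clec3a, with Tnnt2 and Csrp3 of heart muscle among the 5 closest to Nkx2-5. Genes without a regional step had less similar partners: Gata6 with Klf3 (r = 0.851), Mef2c with Entpd1 (r = 0.859) and Isl1 with Selplg (r = 0.83). All r are over the same 20 libraries in 4 groups and describe the group pattern.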

How the data were processed

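RNA of the ascending and descending aorta was sequenced in 20 libraries. The authors deposited unnormalized read counts for each Ensembl gene. Per the submitters' processing notes, fastp, STAR 2.5, HTSeq 0.6.1 and the mm10 genome were used; their settings, the annotation and the strand setting are not given in the sources used here. The 20 per-library files equal the series table, and no 2 libraries agreed within counting noise. Gene IDs were matched to GENCODE vM21 on GRCm38 (54495 matched, 37 did not), and promoter sequences came from RefSeq (GRCm38.p6). From the counts, genes were kept by filterByExpr in edgeR 4.0.16 (R 4.3.3; minimum count 10, minimum total 15), which left 15543 with all 10 members among them. TMM factors (trimmed mean of M values) set the library scale, and 1 quasi-likelihood model with a coefficient per group (16 residual degrees of freedom) gave 5 comparisons, adjusted by the Benjamini-Hochberg method over all genes tested. Intervals are 95%, built from that computed SE with the 16 residual degrees of freedom. They can be slightly wider than the test implies, and so include 0 where an unadjusted p is just under 0.05. Bounds against 3 counts, like count ratios, cover counting error only. The members were chosen by name, and they and the gene lists were chosen with earlier results of these data known. Named besides the members were up to 4 called genes with the smallest p of each list and comparison and the 5 genes most like each member; chromosome neighbours and markers at 0 were named for their position or their zero, after their values were seen. The library sets are the 2 sides of principal component 1 of 33 pseudogenes that averaged 2 CPM or more. Same-numbered ascending and descending BAPN libraries deviated together (r from 0.151 to 0.291, each best with its own number). The numbers may thus pair them, but no label says so, and under water r ran from -0.054 to 0.345. The main model holds no block for these numbers. The fits were tested on simulated data. Alternatives were relative log expression and upper-quartile scaling, other filters, DESeq2 1.42.0, limma-voom (limma 3.58.1), a replicate block, the 2 compared groups alone, a library set term, fits within sets, and leaving out each library.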

Additional observations from a re-analysis of the deposited data

Results flagged for a closer look

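Within the groups of 5 libraries, 36 sets of values of the 10 genes were checked for a library far from the other 4, and 2 were found, where chance gives about 1 in 20. Both concern Gata5 in the descending aorta, where it had 4 and 7 counts in all. In descending water replicate 3 stood at 0 CPM, below the 0.0512 to 0.0616 CPM of the others. In descending BAPN replicate 3 stood at 0.293 CPM, above the others at 0 to 0.0596 CPM.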

How the results depend on the processing

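Of 1505 recomputed differences of single genes, 1487 kept their side of the threshold, 0 reversed, 9 lost their call (all Gata6 in the descending aorta under BAPN) and 9 gained it (Hand2 in the descending aorta under BAPN in 2, Mef2c between regions under water in 7). The members called under BAPN in the descending aorta numbered 0 with upper-quartile scaling and with a library set term, and 0 to 1 on leaving out each library; within the set with lower pseudogene levels and without descending water replicate 2 the called gene was Hand2, not Gata6. In the ascending aorta 0 members were called on leaving out each library, between regions 7 to 8 under water and 8 under BAPN, and 0 for the difference of effects. The replicate block moved Mef2c between regions under water past the threshold (adjusted p = 0.0245) and changed no other call of a member. Genes called in the ascending aorta under BAPN numbered 986, 542 with a set term, 344 within the set with higher pseudogene levels and 719 to 1094 on leaving out each library. In the descending aorta they numbered 1667, 501 within the other set and 1240 to 1684. Between regions under water the count was 4243, 2399 within the set with lower levels and 3825 to 4448; under BAPN it was 4626, 2755 with a set term and 4267 to 4704. The difference of effects was called for 0 genes by edgeR (1070 at an unadjusted p under 0.05) and by limma-voom, for 41 with no filter on low counts, 14 by DESeq2, 20 with a replicate block within treatment, and 0 to 16 on leaving out each library, with 16 without descending water replicate 4. The causes were not tested beyond smaller groups within sets. Depth limits Gata4, Gata5, Hand1, Hand2os1 and Nkx2-5 in the descending aorta, where they had at most 14 counts per group. Counting motifs in the whole window of 250 bases before to 50 after the start raised the share of promoters with a GATA match from 26.5% to 29.8%.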
